A study of Homo sapiens with 12 samples.

Results

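The genes described are 39 members of the homologous recombination and Fanconi anemia repair pathways, measured by RNA sequencing in NALM-6 and REH, established cell lines of human B-cell acute lymphoblastic leukemia. They were chosen by gene symbol, with earlier results of these data known. The rule used no measured value beyond a minimum level, which is given next. Each symbol matched 1 row of the 60617 genes in the table, and all 39 reached at least 1 CPM (counts per 1000000 reads of the library) in at least 3 libraries, so all 39 are among the 14364 genes tested. RNA was sequenced from 4 groups of 3 libraries each after 48 h: NALM-6 in cerebrospinal fluid (CSF), NALM-6 in media, REH in CSF and REH in media, where media is RPMI with 10% FCS (fetal calf serum). No drug or genetic change is given for any group, although the title of the study concerns methotrexate, an antifolate given against leukemia in the central nervous system. Each is a single line, the source of the CSF is not described, and nothing in the labels ties the 3 libraries of a group to separate cultures, so that a p-value here reflects library-to-library spread that could be technical.

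As background, a lesion that ties the strands of DNA together stops the replication fork. The Fanconi core complex (FANCA, FANCB, FANCC, FANCE, FANCF, FANCG, FANCL and FANCM among its members) then acts as a ubiquitin ligase, and with the conjugating enzyme UBE2T it marks the FANCD2 and FANCI pair, which directs cutting of the lesion. The broken arm is resected by MRE11, RAD50 and NBN with RBBP8 (CtIP) and by the nuclease EXO1, BRCA1 and BARD1 with PALB2 and BRCA2 prepare the resected end for the search for a matching strand, a set of paralogs and partners supports strand invasion, and BLM with RMI1 and RMI2 dissolves the joined molecules. ATM, ATR, TOPBP1, CHEK1 and CHEK2 signal the damage to the cell cycle. Most of these proteins act in the S and G2 phases, in which a sister chromatid is present.

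The libraries held 23412869 to 37146556 reads, and 17792 to 22486 genes had a read. Of 10 B-lineage markers, at least 9 exceeded 1 CPM in each group, whereas 5 T cell markers summed to at most 0.185 CPM and 4 erythroid markers to at most 0.0368 CPM in any library. Of 6 brain cell markers, AQP4 and SNAP25 were at 0 in every group, and MBP had the highest mean in each group. In NALM-6 MBP alone was above 0, and the 6 markers summed to at most 120.9 CPM in CSF and 106.7 CPM in media. In REH they summed to at most 47.3 CPM in CSF and 46.6 CPM in media, with 2 of the 6 over 1 CPM in each group. The 5 myeloid markers summed to 154 to 199.8 CPM in REH in CSF and 72.2 to 81.7 CPM in REH in media, led by MPO, against 7.79 to 8.58 CPM in NALM-6 in CSF and 1.69 to 2.93 CPM in NALM-6 in media, and the part of this in the results below was not tested. Since the material is bulk RNA, fewer cells of a type and less RNA per cell cannot be told apart, and this holds in particular for the share of cells in S and G2.

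In NALM-6 media 1 (the library with the number 1 of NALM-6 in media) and REH CSF 3, which stand apart from the other libraries of their groups, most of the 39 genes were low. The share of ribosomal protein genes was 21.9% for NALM-6 media 1, and its companions had 8.53% and 7.74%. It was 10.3% for REH CSF 3, whose companions had 5.72% and 6.25%. The CPM of the 39 genes summed to 1556 in NALM-6 media 1, against 2944 and 3050 in the other libraries of that group. The sum was 2879 in REH CSF 3, against 3965 and 3617 in the other libraries of that group. All 3 NALM-6 CSF libraries (3752, 3828 and 3924) and all 3 REH media libraries (2907, 3027 and 3064) lay close together.

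Gene by gene, NALM-6 media 1 held a median of 42.4% of the mean of the other 2 NALM-6 media libraries (range 2.95% to 132%), and 34 of the 39 genes were below that mean. In REH CSF 3 the median was 74.9% (31.5% to 150%), with 31 of 39 below. ATM, with an exonic length of 23972 bp and a GC content of 39.1% in its longest transcript, was at 11.2% in NALM-6 media 1 and 31.5% in REH CSF 3. UBE2T, with 1652 bp, was at 113% and 149.6%. FANCG, with a GC content of 58.1%, was at 77.3% and 109%. Across the 39 genes, as a description over genes that share a library, the log2 departure correlated with GC content at r = 0.58 (rho 0.64) in NALM-6 media 1 and r = 0.53 (rho 0.61) in REH CSF 3. With log2 exonic length it correlated at r = -0.28 (rho -0.21) and r = -0.58 (rho -0.51). The 39 genes have a median GC content of 41.4% and a median exonic length of 6068 bp, against 48.5% and 4653 bp for all genes tested with a value, so they are on the long and GC-poor side of the genes tested. Results are therefore given with all 12 libraries and without these 2, which leaves 2 libraries each for NALM-6 in media and REH in CSF.

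**Figure D1:**
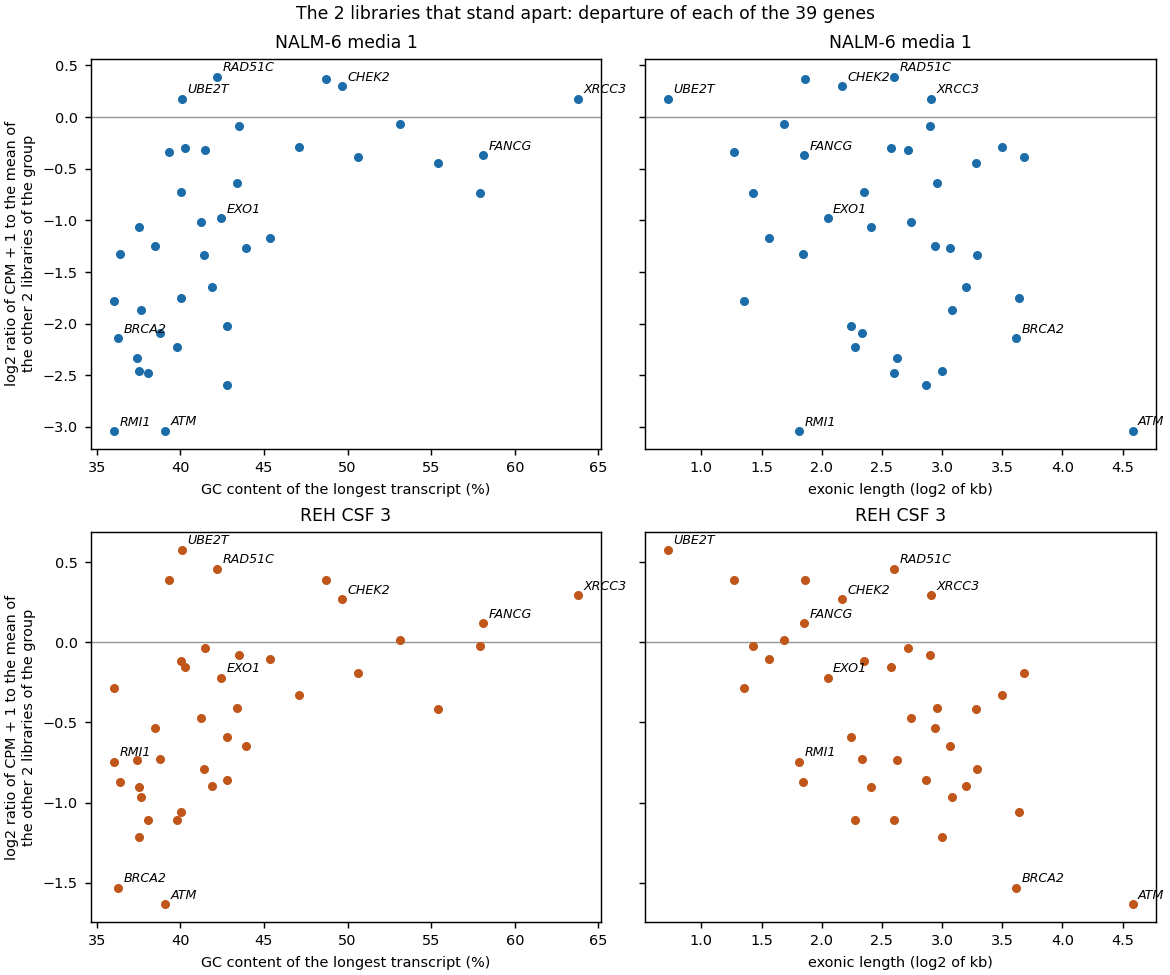
Departure of each of the 39 genes in NALM-6 media 1 (upper row) and REH CSF 3 (lower row), as the log2 ratio of CPM + 1 to the mean of the other 2 libraries of the group, against the GC content of the longest transcript in percent (left) and the log2 of the exonic length in kb (right). Points are genes. GC-poor genes tend to lie lower in both libraries, and ATM, the longest, is among the 3 lowest in both.

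**Figure D2:**
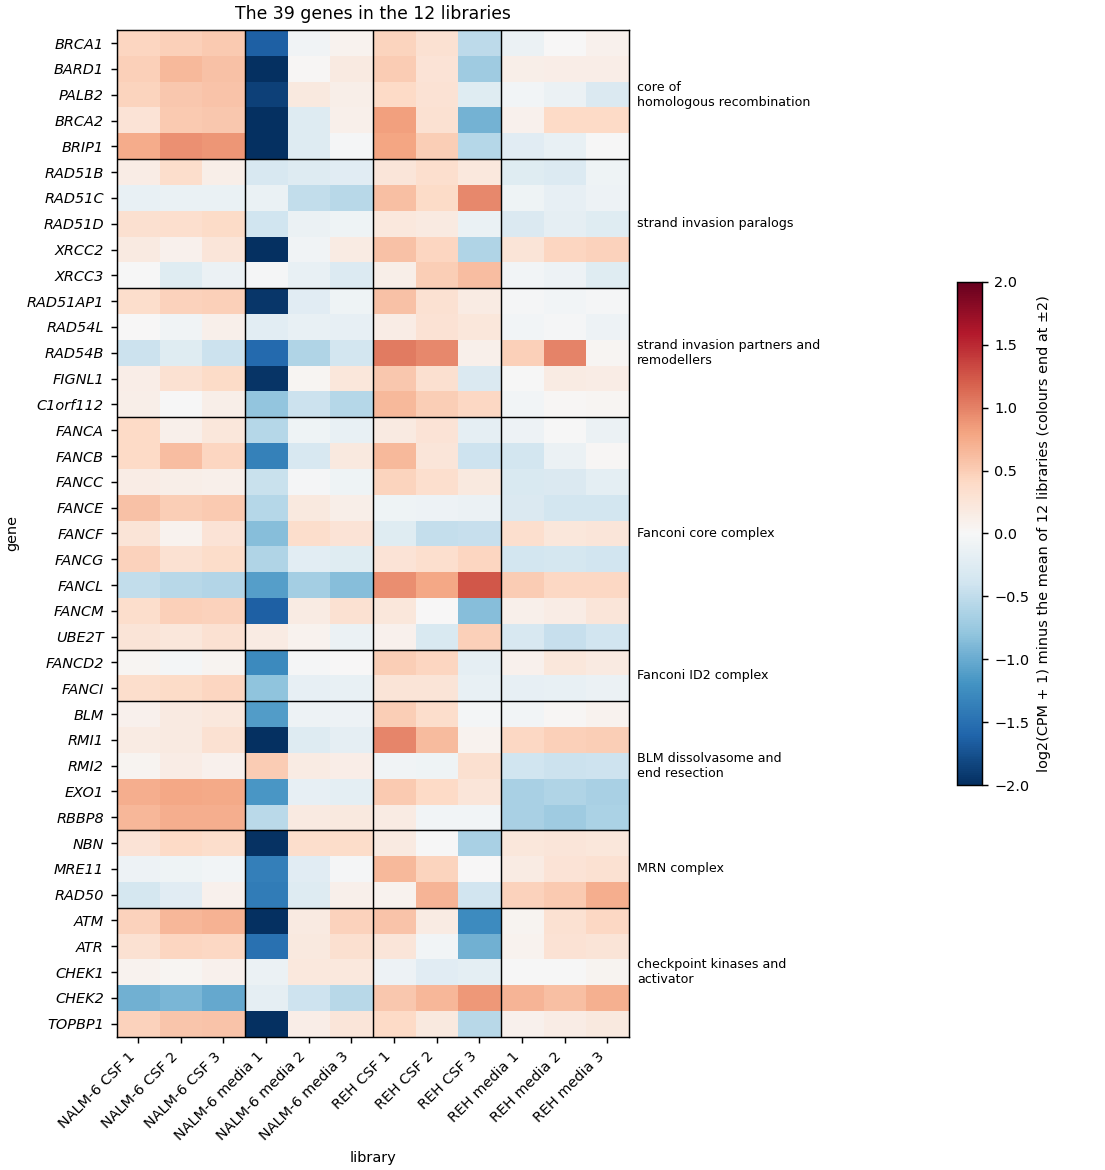
Levels of the 39 genes (rows, grouped by role) in the 12 libraries (columns), as log2(CPM + 1) minus the gene's mean over the libraries, with colours that end at 2 in each direction. The column of NALM-6 media 1 is the lowest for most rows, and REH CSF 3 is below the mean of the other REH CSF libraries for 31 of 39 rows.

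Promoter sequences are shown for 3 genes that rose in CSF in both lines (below), to set side by side start sites of genes that moved together, with and without a match to the motif searched. The windows run from 250 bases before to 50 bases after the start in RefSeq on GRCh38.p14, 5′ to 3′ on the gene's strand. Capitals mark a match to an E2F motif, the site bound by the factors that switch on genes at entry into S phase.
EXO1 (chr1:241847954-241848253, forward strand): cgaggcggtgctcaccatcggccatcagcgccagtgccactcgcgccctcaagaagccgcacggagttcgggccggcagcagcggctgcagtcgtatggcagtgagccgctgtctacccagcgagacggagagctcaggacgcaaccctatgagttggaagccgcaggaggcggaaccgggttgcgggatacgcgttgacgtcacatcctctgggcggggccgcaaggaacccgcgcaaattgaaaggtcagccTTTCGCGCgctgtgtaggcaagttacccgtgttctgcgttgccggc
FANCG (chr9:35079893-35080192, reverse strand): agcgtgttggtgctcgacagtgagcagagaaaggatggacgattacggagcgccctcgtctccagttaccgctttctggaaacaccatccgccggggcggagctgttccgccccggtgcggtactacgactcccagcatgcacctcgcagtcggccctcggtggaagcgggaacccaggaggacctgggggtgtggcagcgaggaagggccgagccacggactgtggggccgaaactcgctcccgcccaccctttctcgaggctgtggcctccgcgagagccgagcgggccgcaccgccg
RBBP8 (chr18:22933078-22933377, forward strand): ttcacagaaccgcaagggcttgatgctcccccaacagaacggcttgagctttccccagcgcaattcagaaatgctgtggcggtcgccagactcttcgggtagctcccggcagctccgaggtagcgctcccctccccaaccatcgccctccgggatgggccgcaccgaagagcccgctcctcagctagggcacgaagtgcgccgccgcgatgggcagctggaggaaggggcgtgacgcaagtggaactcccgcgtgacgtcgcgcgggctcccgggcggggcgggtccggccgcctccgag
The EXO1 window, the first of 2, holds 1 match, TTTCGCGC, which begins 4 bases after the start, and the FANCG and RBBP8 windows hold none. RefSeq windows were found for 35 of the 39 genes (C1orf112 under its other symbol FIRRM), and both strands were searched for TTTCCCGC, TTTCGCGC, TTTGCCGC or TTTGGCGC (E2F) and for TTTGAA or TTCGAA (the cell cycle homology region, CHR). An E2F match was present for 7 of the 35 genes, or 20%, against 3.99% of 27305 symbols with any window. These were XRCC2, FANCA, FANCC, FANCD2, RMI1, EXO1 and TOPBP1. A CHR match was present for 5 of 35, or 14.3% (BRIP1, C1orf112, FANCC, UBE2T and ATM), against 19.5% of symbols, and no match to 1 motif overlapped a match to the other in these windows. With the 2 libraries left out, 5 of the 7 genes with an E2F match rose in CSF in NALM-6 and 5 in REH, beside 16 and 20 of the 28 genes with a window and no match. A match says only that these letters are present.

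CSF against media was first compared in NALM-6. With all 12 libraries, 7 of the 39 genes rose in CSF and 1 fell (limma on log2(CPM + 1), Benjamini-Hochberg adjusted p under 0.05). Of all 14364 genes tested, 10.9% rose and 1.23% fell. The genes that rose are the nuclease EXO1, the resection factor RBBP8, FANCI, the core complex subunit FANCG, C1orf112, and the strand invasion paralogs RAD51D and RAD51B, and the gene that fell is CHEK2, the kinase downstream of ATM. The median difference of the 39 genes was 0.68 on the log2(CPM + 1) scale, against 0.25 for all genes tested. The 3 CSF libraries all lay above the 3 media libraries for 24 of the 39 genes, beside 35.8% of all genes tested, and all below for 1, beside 10.9%. The replicate numbers were taken to pair the NALM-6 libraries, although some libraries of different numbers correlated as well (below). With the replicate number as a block only EXO1 passed (limma adjusted p = 0.0267). The count was then 1 instead of 8, and 6.02% of all genes tested passed with the block. The count was 3 without any one of NALM-6 CSF 1, 2 or 3, and 0 when only the NALM-6 libraries were fitted. The share of all genes tested is not given for these fits, so the lower counts are not read as particular to the 39.

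EXO1, a 5′ to 3′ exonuclease that extends resected ends, had 215, 221 and 219 CPM in the NALM-6 CSF libraries and 57.3, 115 and 113 CPM in the media libraries. The 3 CSF libraries agree closely and lie far above all media libraries, of which NALM-6 media 1 is the lowest. The difference was 1.26 ± 0.23 (SE) on the log2 scale, a 2.39-fold rise (limma adjusted p = 0.00564). Leaving out the 2 libraries gave 0.93 ± 0.053 (SE; limma adjusted p = 1.4e-07). RBBP8 (CtIP), which with MRE11 starts resection, had 220.2, 231 and 230.0 CPM in NALM-6 in CSF and 95.6, 157 and 160.3 CPM in media. The groups do not overlap, and the difference was 0.76 ± 0.19 (SE; limma adjusted p = 0.0246), or 0.51 ± 0.065 (SE) without the 2 libraries.

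FANCG, which holds parts of the Fanconi core complex together, had 145, 129.7 and 136 CPM in NALM-6 in CSF and 69, 90.3 and 88.2 CPM in media. Every CSF library exceeded every media library, by 0.73 ± 0.13 (SE) between the groups (limma adjusted p = 0.00477). FANCI, the partner of FANCD2 in the complex that receives ubiquitin, had 367, 374 and 386 CPM in CSF and 164, 254 and 259 CPM in media. Its difference was 0.76 ± 0.18 (SE; limma adjusted p = 0.0234), with NALM-6 media 1 well below the other media libraries, and it did not pass with correction for exonic length (0.29, limma adjusted p = 0.109) or for length and GC content (0.23, limma adjusted p = 0.256). FANCD2 itself, described after its values were seen, had 142, 135 and 143 CPM in CSF and 56.3, 135 and 138 CPM in media, groups that overlap, with a difference of 0.46 (limma adjusted p = 0.303). It was the smaller of the pair also without the 2 libraries, at 0.034 against 0.55 for FANCI.

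C1orf112 (FIRRM), which works with the remodeller FIGNL1, had 38, 35.1 and 38.3 CPM in NALM-6 in CSF and 19.8, 25.8 and 23.4 CPM in media. The groups are apart, by 0.68 ± 0.13 (SE; limma adjusted p = 0.00746), and 21.7% of its exonic length overlaps SCYL3 on the opposite strand. RAD51D had 66, 66.9 and 69.2 CPM in CSF and 39.8, 48.3 and 49.6 CPM in media, a difference of 0.55 ± 0.14 (SE; limma adjusted p = 0.0264). RAD51B had 13.9, 16.2 and 13.6 CPM in CSF and 9.77, 10.3 and 10.5 CPM in media, a difference of 0.48 ± 0.12 (SE; limma adjusted p = 0.0252). Both paralogs are subunits of the complex of RAD51B, RAD51C, RAD51D and XRCC2, and for both the groups are apart. With correction for exonic length RAD51D turned to -0.053, and with correction for length and GC content RAD51B turned to -0.045. Under median-of-ratios scaling, which moved the median of all genes to 0.034, C1orf112, RAD51D and RAD51B no longer passed, while EXO1, RBBP8, FANCG and FANCI did, with 7.47% of all genes called higher and 2.37% lower.

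CHEK2 had 22.5, 23.3 and 21.7 CPM in NALM-6 in CSF and 39.4, 33.4 and 30.3 CPM in media. It was lower in every CSF library than in any media library, with a difference of -0.58 ± 0.14 (SE), or a fold of 0.667 (limma adjusted p = 0.0198). The difference was -0.48 without the 2 libraries (limma adjusted p = 2.3e-04). Of the 30 alternative analyses, EXO1 passed in NALM-6 in 29, FANCG in 28, CHEK2 in 24, RBBP8 in 23, C1orf112 and FANCI in 22 each, and RAD51B and RAD51D in 18 each.

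**Figure D3:**
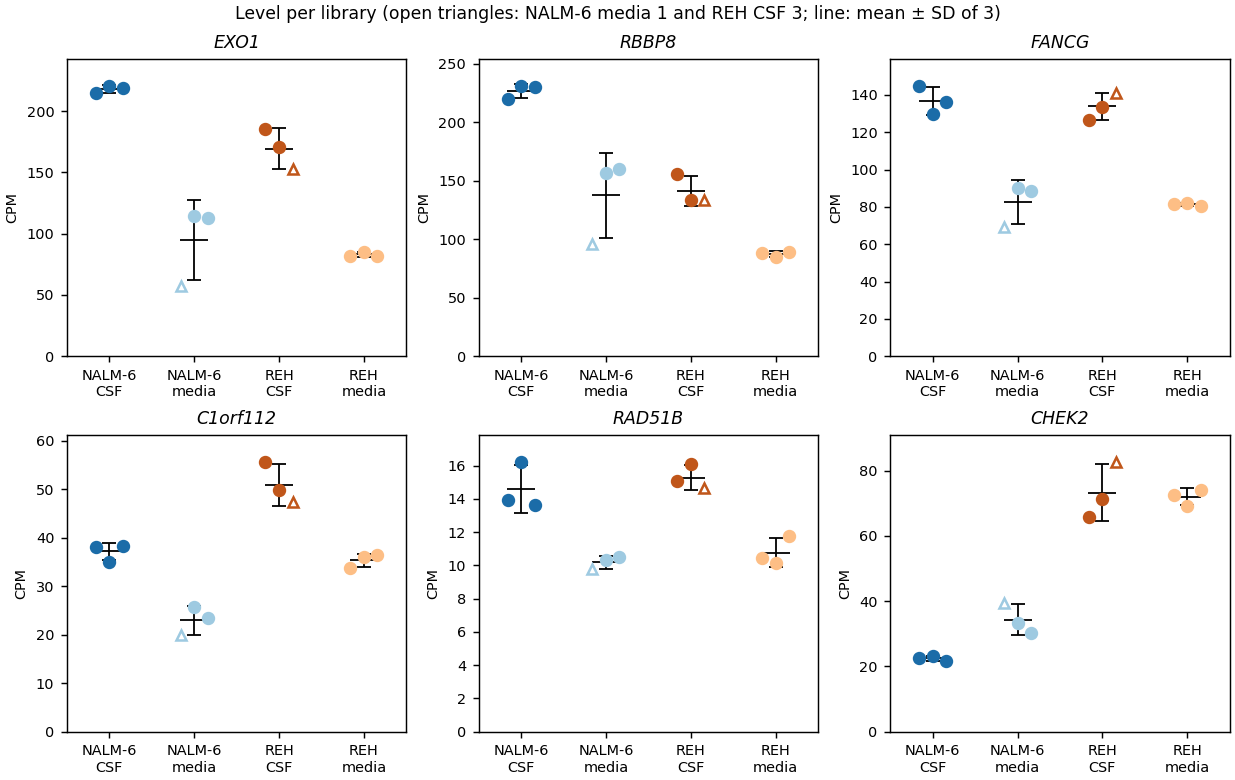
CPM of 6 genes in each of the 12 libraries (points), with the mean and SD of 3 libraries per group (lines), CSF to the left of media within each line. Open triangles are NALM-6 media 1 and REH CSF 3. EXO1, RBBP8, FANCG, C1orf112 and RAD51B are higher in every CSF library than in any media library of the same line, and CHEK2 is lower in every CSF library than in any media library in NALM-6, while its REH groups overlap.

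The other 31 genes did not pass in NALM-6 with 12 libraries. The core of recombination had the largest median difference of the 8 roles, 1.24, with values from 1.02 for BRCA1 to 1.81 for the helicase BRIP1, and none of its 5 genes passed (limma adjusted p from 0.0703 for BRIP1 to 0.166 for BRCA2). Of these, 2 are described after their values were seen. BRIP1 had 128, 143 and 141 CPM in CSF and 11.7, 63 and 74.7 CPM in media, and BRCA1 had 227, 234 and 242 CPM in CSF and 53.5, 160.4 and 178 CPM in media. In both, NALM-6 media 1 is far below the other media libraries, and all 3 CSF libraries are above all media libraries. The median SE of the 39 genes was 0.27 with all 12 libraries and 0.079 when NALM-6 media 1 and REH CSF 3 were left out.

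When the 2 libraries were left out, 22 of the 39 genes rose in CSF in NALM-6 and 2 fell, where 30.4% and 11.2% of 14032 genes tested did. The median of the 39 was 0.29, against 0.091 for all genes tested. These counts come from a fit without the replicate block. With the block, 19 rose and 1 fell, beside 21.4% and 5.88% of all genes tested, and FANCB, FANCC, UBE2T and CHEK1 no longer passed. All 5 genes of the core rose: BRCA1 by 0.47, BARD1, its ubiquitin ligase partner, by 0.47, PALB2, the bridge to BRCA2, by 0.36, BRCA2 by 0.53 and BRIP1 by 0.99 (limma adjusted p from 1.6e-05 to 0.0183). Of the 5 paralogs of this kind, RAD51B, RAD51C and RAD51D rose, by 0.45, 0.38 and 0.45. The other paralogs, XRCC2 and XRCC3, were at 0.13 and 0.086 and did not pass. RAD51AP1, which stimulates strand invasion, rose by 0.59 and C1orf112 by 0.58, whereas the motor proteins RAD54L and RAD54B and the remodeller FIGNL1 (0.16, 0.12 and 0.15) did not pass.

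In the Fanconi core complex, 6 of 9 genes rose without the 2 libraries. FANCG was the highest at 0.61, followed by FANCB at 0.54, FANCE at 0.37, FANCA, of whose exonic length 23.6% overlaps ZNF276 on the opposite strand, at 0.37, UBE2T at 0.28 and FANCC at 0.18. FANCF, FANCL, the subunit with the ligase activity, and FANCM, the DNA translocase of the complex, did not pass (-0.12, 0.22 and 0.20). Of the 5 genes of the dissolvasome and end resection, EXO1, RBBP8, RMI1 (0.43) and the helicase BLM (0.26) rose and RMI2 (-0.047) did not pass. No gene of the MRN complex passed, with NBN at -0.022, MRE11 at 0.05 and RAD50 at -0.089. Among the checkpoint genes TOPBP1, the activator of ATR, rose by 0.34, CHEK1, the kinase downstream of ATR, fell by 0.15 on the log2 scale (limma adjusted p = 0.0458) together with CHEK2, and the kinases ATM (0.29) and ATR (0.13) did not pass. Every role but the MRN complex held at least 1 gene that rose.

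CSF against media was next compared in REH. With all 12 libraries, 9 of the 39 genes rose and none fell. Of all genes tested, 13.2% rose and 1.71% fell. The 9 were EXO1, RAD51C, FANCG, RBBP8, FANCC, XRCC3, FANCL, C1orf112 and RAD51B. The median of the 39 was 0.23, against 0.075 for all genes tested. At an unadjusted p under 0.05 the count was 14 genes, beside 24.7% of all genes tested. The CSF libraries all lay above the media libraries for 15 of the 39 genes and all below for 3, beside 28.8% and 14.3% of all genes tested. The count of called genes was 3 without REH media 1 or without REH media 2, 5 without REH media 3, REH CSF 1 or REH CSF 2, 6 without REH CSF 3, and 17 without NALM-6 media 1, which enters only through the shared estimate of the spread. Shares of all genes are not given for these fits either, and the same limit holds.

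EXO1 had 185, 171 and 152 CPM in the REH CSF libraries and 81.8, 85.2 and 82.2 CPM in the media libraries. The media libraries lie within a few CPM of each other and every CSF library is far above them, by 1.02 ± 0.23 (SE), a 2.02-fold rise (limma adjusted p = 0.0122). Its partner in resection RBBP8 had 156, 134 and 134 CPM in CSF and 88.3, 84.7 and 89.1 CPM in media, a difference of 0.68 ± 0.19 (SE; limma adjusted p = 0.0305). FANCG had 127, 133 and 141 CPM in CSF and 81.5, 82.1 and 80.6 CPM in media. Here REH CSF 3 is the highest library, and the difference was 0.71 ± 0.13 (SE; limma adjusted p = 0.00363). EXO1 and FANCG in REH passed under each of the 30 alternative analyses, and RBBP8 in 20 of them.

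RAD51C, the paralog found in both paralog complexes, had 78.3, 67.8 and 101 CPM in REH in CSF and 48.7, 46.1 and 48.1 CPM in media. REH CSF 3 is the highest, the groups are apart, and the difference was 0.76 ± 0.16 (SE; limma adjusted p = 0.00979). XRCC3, which pairs with RAD51C, had 86.3, 113 and 122 CPM in CSF and 76.3, 73.8 and 66.9 CPM in media, a difference of 0.55 ± 0.15 (SE; limma adjusted p = 0.0337). RAD51B had 15.1, 16.1 and 14.7 CPM in CSF and 10.4, 10.1 and 11.8 CPM in media, a difference of 0.47 ± 0.12 (SE; limma adjusted p = 0.0204). The exons of XRCC3 overlap those of KLC1 on the opposite strand over 76.7% of their length, and it is not given whether reads were counted by strand, so the reads of these neighbours may be mixed.

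FANCC had 58.7, 54.3 and 49.5 CPM in REH in CSF and 34.6, 35 and 37.6 CPM in media, a difference of 0.58 ± 0.14 (SE; limma adjusted p = 0.0145). FANCL had 38.2, 34 and 47.4 CPM in CSF and 28.3, 26.2 and 26.3 CPM in media, a difference of 0.54 ± 0.15 (SE; limma adjusted p = 0.0376), and 18.7% of its exonic length overlaps VRK2 on the opposite strand. C1orf112 had 55.6, 49.8 and 47.2 CPM in CSF and 33.8, 35.9 and 36.3 CPM in media, a difference of 0.51 ± 0.13 (SE; limma adjusted p = 0.0221). For all 3 genes the groups are apart. Under median-of-ratios scaling 5 of the 9 still passed, without RAD51B, RAD51C, XRCC3 and FANCL, and FANCF fell, with 10.2% of all genes called higher and 3.74% lower. Of the 30 alternatives, RAD51C passed in 23, FANCC in 22, C1orf112 in 21, RAD51B in 19, FANCL in 15 and XRCC3 in 13.

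The other genes of REH did not pass with 12 libraries. In the core of recombination the differences ran from -0.24 for BRCA2 to 0.36 for BRIP1, with a median of 0.082. BRCA1 had 229, 208 and 117 CPM in REH in CSF and 156, 170.0 and 179 CPM in media, and BRIP1 had 131, 106 and 50.6 CPM in CSF and 64.6, 68.4 and 75.2 CPM in media. REH CSF 3 lies below the media libraries in both, while the other CSF libraries lie above them.

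With the 2 libraries left out, 27 of the 39 genes rose in CSF in REH and 2 fell, where 31.1% and 14% of genes tested did. This fit omits REH CSF 3, in which 31 of the 39 genes were below the mean of the other REH CSF libraries. Leaving it out raises the CSF mean of those genes, so these counts are not independent of that choice. The median of the 39 was 0.34, against 0.084 for all genes tested. In the core BRCA1 (0.38), BARD1 (0.27), PALB2 (0.50) and BRIP1 (0.76) rose and BRCA2 (0.26) did not pass. Of the paralogs RAD51C rose by 0.60, RAD51B by 0.50, XRCC3 by 0.45 and RAD51D by 0.44, and XRCC2 (0.13) did not pass. Of the strand invasion partners C1orf112, RAD51AP1, FIGNL1 and RAD54L rose, by 0.56, 0.48, 0.33 and 0.27, and RAD54B (0.50) did not pass.

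The Fanconi core had 7 genes that rose, led by FANCG (0.67), FANCC (0.65) and FANCB (0.59), with FANCL, FANCA, UBE2T and FANCE between 0.24 and 0.41. FANCF, the adaptor of the core complex, fell by 0.63 on the log2 scale (limma adjusted p = 1.7e-04). It had 18.7, 15.7 and 15.9 CPM in REH in CSF and 28.5, 26.2 and 26.7 CPM in media, so all CSF libraries, REH CSF 3 included, are below all media libraries. FANCD2 rose by 0.29 and FANCI by 0.41. All 5 genes of the dissolvasome and end resection rose, from 0.34 for RMI2 to 1.09 for EXO1. In the MRN complex MRE11 rose by 0.29, while NBN (-0.15) and RAD50 (-0.19) did not pass. Among the checkpoint genes CHEK1 fell by 0.18 on the log2 scale (limma adjusted p = 0.0155), with 125, 115 and 117 CPM in CSF and 135, 134 and 140.5 CPM in media (described after its values were seen), and ATM, ATR, CHEK2 and TOPBP1 did not pass.

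**Figure D4:**
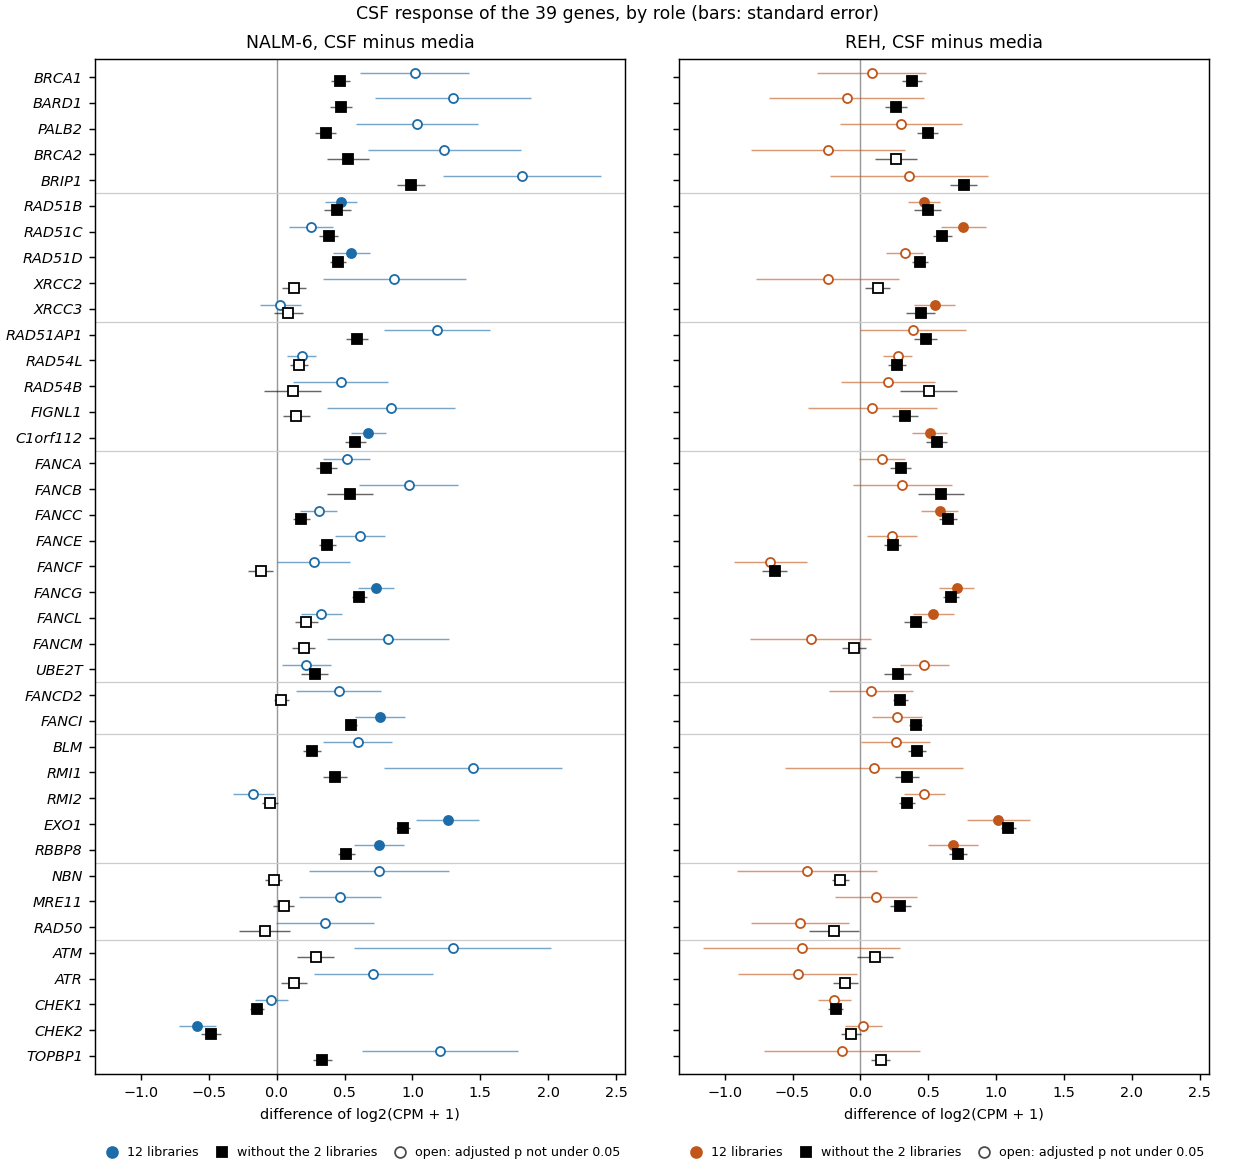
Difference of log2(CPM + 1), CSF minus media, of the 39 genes grouped by role, in NALM-6 (left) and REH (right), with all 12 libraries (circles) and leaving out NALM-6 media 1 and REH CSF 3 (squares). Bars are standard errors and filled symbols passed an adjusted p under 0.05. When the 2 libraries are left out the bars shorten and most genes of the core, the Fanconi core complex and end resection lie above 0 in both lines.

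Set side by side, 5 genes rose in CSF in both lines with all 12 libraries: EXO1, RBBP8, FANCG, C1orf112 and RAD51B, which are 71.4% of the 7 in NALM-6 and 55.6% of the 9 in REH. Of all genes tested, 5.1% rose in both. Only EXO1 rose in both with the replicate block, beside 2.6% of all genes tested. This block was fitted in both lines, though the numbers were taken to pair the libraries in NALM-6 only. Under median-of-ratios scaling C1orf112 and RAD51B were lost in this overlap, and 3.36% of all genes tested rose in both. Leaving out the 2 libraries, 20 genes rose in both, beside 18.9% of all genes tested, and they are 90.9% of the 22 in NALM-6 and 74.1% of the 27 in REH. CHEK1 fell in both, beside 6.47% of all genes tested. With the block 15 of the 20 rose in both, beside 12.4% of all genes tested. CHEK1 did not pass in both with the block, where 2.89% of all genes fell in both. The lines were compared with their own media libraries, but in 1 fit with a shared estimate of the spread.

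Whether the lines differed in their response to CSF was tested as the difference of the differences, REH minus NALM-6. With all 12 libraries none of the 39 genes passed in limma, where 4.23% of all genes tested did. At an unadjusted p under 0.05 there were 4 (CHEK2, RMI2, FANCF and XRCC3), beside 17.5% of all genes tested. EdgeR called 0 of the 39 (0.808% of all genes) and DESeq2 called 1, FANCC (4.15%). The median of the 39 was -0.38, against -0.14 for all genes tested, with 31 of the 39 genes below 0. When the 2 libraries were left out the median of all genes was -0.0064, and 20 of the 39 genes were below 0.

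In that setting 4 genes passed for the difference, beside 13.9% of all genes tested, and these were named after their values were seen. FANCC responded more in REH, by 0.46 ± 0.093 (SE; limma adjusted p = 0.0062). It had 47.9, 46.6 and 46.4 CPM in NALM-6 in CSF and 31.4, 42.1 and 40.5 CPM in NALM-6 in media, with NALM-6 media 1 the lowest. RMI2 responded more in REH, by 0.39 ± 0.085 (SE; limma adjusted p = 0.0106), with 42, 41.8 and 55.3 CPM in REH in CSF and 33.4, 32.4 and 32.8 CPM in REH in media, against 46, 49.3 and 47 CPM in NALM-6 in CSF and 63.7, 49.6 and 48.5 CPM in NALM-6 in media. CHEK2, which fell in NALM-6, had a difference of 0.41 ± 0.10 (SE; limma adjusted p = 0.0178), and its response in REH was -0.069. FANCF, which fell in REH, had a difference of -0.51 ± 0.13 (SE; limma adjusted p = 0.0223), and in NALM-6 it had 26.8, 23.6 and 27 CPM in CSF and 11.9, 28.8 and 27.3 CPM in media. With the replicate block none of the 4 passed, nor did any other of the 39, beside 4.02% of all genes tested. The block was fitted in both lines, but the replicate numbers were taken to pair the libraries in NALM-6 only.

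The lines themselves were compared in each medium. In media, 5 of the 39 genes were higher in REH than in NALM-6 and 2 were lower with all 12 libraries, beside 26.4% and 13.5% of all genes tested. In CSF 6 were higher and 2 lower, beside 24.5% and 13.4%. The balance between higher and lower depended on the scaling, for all genes tested as well as for the 39. Under median-of-ratios scaling 5 were higher and 7 lower in media, beside 22.4% and 17.8% of all genes tested, and 5 were higher and 6 lower in CSF, beside 22.1% and 17%. In edgeR 4 were higher and 7 lower in media and likewise in CSF, and in DESeq2 6 were higher and 9 lower in media and 5 higher and 7 lower in CSF. The shares of all genes are not given for edgeR and DESeq2 here, so these counts are not read as particular to the 39. The 7 genes in media are 17.9% of the 39, where 39.9% of all genes passed in either direction, and the 8 in CSF are 20.5%, where 37.9% did. These shares include NALM-6 media 1 and REH CSF 3, and without them 19 genes passed in media (48.7% of 39, against 67.4%) and 27 in CSF (69.2% of 39, against 68.6%). Of these, 11 were higher and 8 lower in REH in media, beside 39.5% and 28%, and 14 were higher and 13 lower in CSF, beside 38.9% and 29.7%.

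FANCL, the ligase subunit, had 28.3, 26.2 and 26.3 CPM in REH in media and 8.6, 11.8 and 10.4 CPM in NALM-6 in media. The groups are far apart, by 1.32 ± 0.15 (SE; limma adjusted p = 3.7e-05), and in CSF the difference was 1.53 ± 0.15 (SE; limma adjusted p = 9.5e-06). CHEK2 was also higher in REH, with 72.5, 69.1 and 74.2 CPM in REH in media against 39.4, 33.4 and 30.3 CPM in NALM-6 in media. The difference was 1.05 ± 0.14 (SE) in media (limma adjusted p = 8.9e-05) and 1.65 ± 0.14 (SE) in CSF (limma adjusted p = 1.8e-06). FANCL and CHEK2 passed in media and in CSF under each of the 30 alternatives. C1orf112 was higher in REH by 0.61 in media (limma adjusted p = 0.00334) and 0.44 in CSF (limma adjusted p = 0.0196). In media it did not pass with quantile normalization (0.31), with length correction (0.24, with or without the block) or with length and GC correction (0.15, limma adjusted p = 0.553), and in CSF it passed in 27 of the 30.

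RAD54B, a relative of the motor protein RAD54L, was low in both lines, with 3.21, 5.0 and 2.12 CPM in REH in media and 0.0344, 0.985 and 1.35 CPM in NALM-6 in media, where the lowest value is 1 read. Its difference was 1.34 ± 0.35 (SE) in media (limma adjusted p = 0.0101) and 1.07 ± 0.35 (SE) in CSF (limma adjusted p = 0.0311). RAD50, the largest subunit of the MRN complex, had 5.37, 5.66 and 6.65 CPM in REH in media and 0.757, 2.89 and 3.98 CPM in NALM-6 in media, a difference of 1.08 ± 0.36 (SE; limma adjusted p = 0.0351). It passed in 19 of the 30 alternatives, and not in edgeR (adjusted p = 0.0673), nor without NALM-6 media 1 (0.64, limma adjusted p = 0.0678), without any single REH media library or when only the media groups were fitted. RAD54B passed in 29 of 29 in media and in 20 of 29 in CSF. Another annotated gene covers 79.7% of the exonic length of RAD50 on the same strand, and FSBP covers 59.1% of that of RAD54B, so the counts of both may miss reads that fit more than 1 gene, and their levels are uncertain.

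RMI2 was lower in REH in media, with a difference of -0.69 ± 0.15 (SE; limma adjusted p = 0.00377), and in CSF the difference was -0.045 (limma adjusted p = 0.851). Without NALM-6 media 1 and REH CSF 3, RMI2 was lower in REH in media (-0.56, limma adjusted p = 3.8e-06) and also in CSF (-0.175, limma adjusted p = 0.0213). RBBP8 was lower in REH in both, with a difference of -0.61 ± 0.19 (SE) in media (limma adjusted p = 0.0227) and -0.69 ± 0.19 (SE) in CSF (limma adjusted p = 0.0126). FANCE, the subunit that binds FANCD2, was lower in REH in CSF, with 44.2, 43.7 and 43.2 CPM in REH in CSF against 71.4, 66.4 and 68 CPM in NALM-6 in CSF, a difference of -0.64 ± 0.18 (SE; limma adjusted p = 0.0171). RAD51C was higher in REH in CSF by 0.79 ± 0.16 (SE; limma adjusted p = 0.00267) and XRCC3 by 0.53 ± 0.15 (SE; limma adjusted p = 0.0165), and in media these were at 0.28 and 0.013 and did not pass. XRCC3 in CSF passed in 19 of the 30 alternatives, and not under median-of-ratios scaling, in edgeR or DESeq2, with the replicate block, with length correction, with length and GC correction (0.24, limma adjusted p = 0.327), or without NALM-6 CSF 2 or 3 or REH CSF 2 or 3. RAD51C passed in 29, FANCE in 28, RMI2 in media in 30, and RBBP8 in 24 in media and 30 in CSF.

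**Figure D5:**
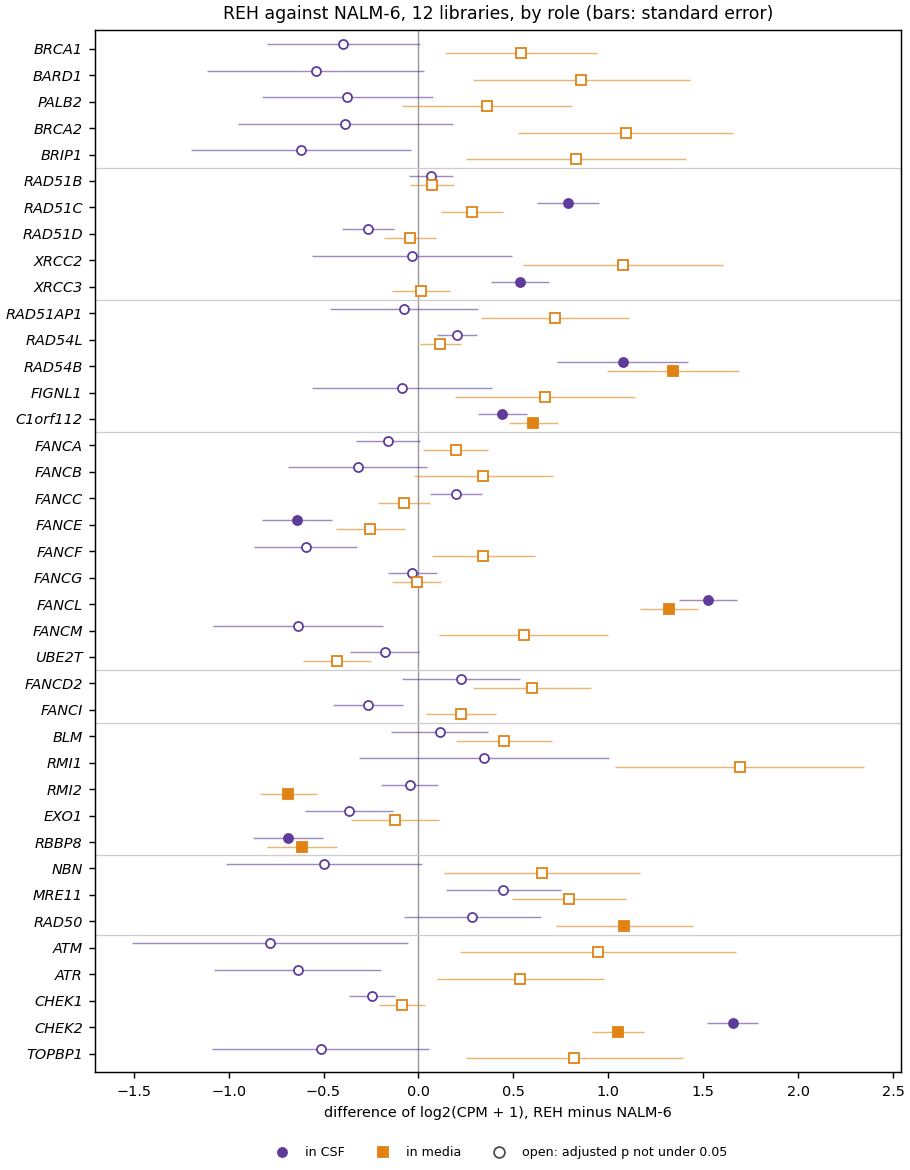
Difference of log2(CPM + 1), REH minus NALM-6, of the 39 genes grouped by role, in CSF (circles) and in media (squares), with all 12 libraries. Bars are standard errors and filled symbols passed an adjusted p under 0.05. FANCL and CHEK2 lie farthest to the right among the genes that passed in CSF, and none of the 5 genes of the core of recombination passed. The core lies below 0 in CSF and above 0 in media here, but without NALM-6 media 1 and REH CSF 3 the differences in media were -0.007 for BRCA1, 0.033 for BARD1, -0.31 for PALB2, 0.38 for BRCA2 and 0.014 for BRIP1, of which PALB2 and BRCA2 passed, and BRCA2 was at 0.12 in CSF.

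Levels were compared between genes per kb of exonic length, which is the length of the merged exons of all annotated transcripts of a gene. A rank therefore depends also on which transcripts are annotated, and not on the level alone. UBE2T had the highest level in each group, with 73.5 CPM per kb in NALM-6 in CSF, 63.2 in NALM-6 in media, 66.5 in REH in CSF and 46.7 in REH in media. EXO1 ranked 2 of 39 in both CSF groups (52.7 CPM per kb in NALM-6 in CSF and 40.9 in REH in CSF), against ranks of 6 in NALM-6 in media (22.9) and 9 in REH in media (20.1). FANCI, TOPBP1, RAD54L, RBBP8, FANCG, RAD51AP1 and RMI1 were also in the first 12 places in each group. Of the exonic length of RAD54L, 25.1% overlaps LRRC41 on the opposite strand. RAD51B ranked 37 in each group, at 1.95 CPM per kb in NALM-6 in CSF, 1.36 in NALM-6 in media, 2.04 in REH in CSF and 1.44 in REH in media, and RAD54B and RAD50, whose counts are uncertain, held the last 2 places. BRCA2 and ATM, both large proteins with long transcripts, ranked between 26 and 36. CHEK2 ranked 15 in REH in CSF and 14 in REH in media, but 33 in NALM-6 in CSF and 22 in NALM-6 in media.

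The 39 genes were set beside lists of other repair and cell cycle genes. Of all genes tested, 10.9% rose and 1.23% fell in NALM-6 with 12 libraries, and 13.2% and 1.71% in REH. Without the 2 libraries 30.4% rose and 11.2% fell in NALM-6, and 31.1% and 14% in REH. Under median-of-ratios scaling the shares were 7.47% and 2.37% in NALM-6, and 10.2% and 3.74% in REH. Of 49 other genes of homologous recombination and the Fanconi pathway, 2 rose and 0 fell in CSF in NALM-6 and 3 rose and 0 fell in REH with all 12 libraries, with medians of 0.33 and 0.082. DMC1, a strand exchange protein of meiosis, rose in both, by 1.01 in NALM-6 (limma adjusted p = 0.00101) and 0.57 in REH (limma adjusted p = 0.0174). Leaving out the 2 libraries, 19 of the 49 rose and 7 fell in NALM-6, and 22 rose and 5 fell in REH. None of 10 partners of ATR passed in either line with 12 libraries. Of 16 end joining genes 2 rose and 1 fell in NALM-6 and 1 rose in REH, of which PARP3, an ADP-ribosyltransferase that acts at breaks, rose in both, by 0.66 in NALM-6 and 0.66 in REH. Of 7 mismatch repair genes, MSH6 fell in REH, by 0.58 on the log2 scale (limma adjusted p = 0.0293), and no other passed in either line with 12 libraries. Without the 2 libraries, 2 partners of ATR rose and 2 fell in NALM-6, and 3 rose and 2 fell in REH. For end joining 4 genes rose and 4 fell in NALM-6, and 5 rose and 4 fell in REH. For mismatch repair 1 gene rose and 0 fell in NALM-6, and 2 rose and 1 fell in REH. Under median-of-ratios scaling, 3 of the 49 rose in NALM-6 and 1 in REH, 1 of the partners of ATR fell in REH, and of the end joining genes 2 rose and 0 fell in NALM-6 and 1 rose and 2 fell in REH.

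Nucleotide excision repair had 2 of 13 genes that rose in each line, XPC and DDB2, both sensors of damage and known targets of p53. DDB2 averaged 251 ± 20.3 CPM in REH in CSF and 57.3 ± 1.76 CPM in REH in media, a difference of 2.11 (limma adjusted p = 3.4e-06), and 189 ± 17 CPM in NALM-6 in CSF and 78 ± 12.9 CPM in NALM-6 in media, a difference of 1.28 (SD, 3 libraries in each group). XPC rose by 1.94 in NALM-6 and 1.60 in REH. Of 18 base excision repair genes, 5 rose and 1 fell in NALM-6 and 6 rose in REH, with LIG1, the ligase of replication and repair, at 0.87 in REH. Under median-of-ratios scaling 2 base excision repair genes rose and 1 fell in each line, and 1 of the nucleotide excision repair genes fell in REH. Without the 2 libraries 8 base excision repair genes rose and 2 fell in NALM-6, and 10 rose and 3 fell in REH. Of the nucleotide excision repair genes 4 rose and 2 fell in NALM-6, and 3 rose and 4 fell in REH.

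Of the cell cycle lists, the replication genes mostly rose where they passed and the mitosis genes mostly fell. Of 29 genes of replication licensing and the fork, 6 rose in NALM-6 and 8 in REH and none fell with 12 libraries, and without the 2 libraries 21 rose and 0 fell in NALM-6 and 18 rose and 2 fell in REH. With median-of-ratios scaling 4 rose and 0 fell in NALM-6 and 3 rose and 1 fell in REH. RRM2, a subunit of ribonucleotide reductase, averaged 998 ± 21.2 CPM in NALM-6 in CSF and 479.5 ± 117 CPM in NALM-6 in media (SD, 3 libraries in each group), and CDC6, which loads the helicase, rose by 0.97 in REH. Of 27 mitosis genes none rose in either line and 5 fell in NALM-6 and 9 in REH (5 and 12 with median-of-ratios scaling), and without the 2 libraries 17 fell and 1 rose in NALM-6 and 21 fell and 1 rose in REH. The mitotic kinase PLK1 averaged 38.7 ± 1.54 CPM in NALM-6 in CSF and 119 ± 32.4 CPM in NALM-6 in media, and 58.5 ± 2.03 CPM in REH in CSF and 281 ± 13.5 CPM in REH in media, differences of -1.56 in NALM-6 (limma adjusted p = 4.0e-04) and -2.24 in REH (limma adjusted p = 1.5e-05). The part of a shift in cell cycle stage in the values of the 39 genes was not tested.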

How the data were processed

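RNA of NALM-6 and REH cells in CSF or media was sequenced as stranded mRNA libraries, per the labels' protocols. Per the submitters' processing notes, the build was GRCh38 and the tools were HISAT2 2.1.0, Trimmomatic 0.33, featureCounts, FastQC and edgeR, whose roles are not listed. No source used here gives the annotation or whether strand was used in counting. The authors deposited CPM values for 60617 genes in 12 libraries, each column summing to 1000000. Whole reads could be recovered for 100% of values (tolerance 1e-06) from the size of 1 read in each library, and these served edgeR 4.0.16 and DESeq2 1.42.0 as alternatives.

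The main test, two-sided, was limma 3.58.1 (R 4.3.3) on log2(CPM + 1) with a mean-variance trend, fitted to 4 group means over all 12 libraries for the 14364 genes that reached 1 CPM in 3 or more libraries, with Benjamini-Hochberg adjustment over all of them and a threshold of 0.05. Differences on this scale understate changes of low genes. The scripts were tested on simulated data. Coordinates, exonic lengths (merged exons of all transcripts of a gene) and GC content of the longest transcript came from GENCODE 29 (GRCh38). The 39 genes, the other lists and the rules for naming genes were chosen with earlier results of these data known. All 39 genes are accounted for by role, with values per library for those called in a comparison of CSF with media. For the other lists at most 2 called genes per list and comparison are named.

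Alternatives were other pseudocounts, filters, scalings and count tests, corrections for length and GC, a replicate block, each library left out, and both NALM-6 media 1 and REH CSF 3 left out. The correction combining length with GC, and length correction and the block without the 2 libraries, were chosen after seeing the data. Deviations from the group means of same-numbered CSF and media libraries correlated at 0.36, 0.19 and 0.17 in NALM-6, all above 0.1, so the numbers were taken to pair the libraries there. This pairing is uncertain, since CSF 2 with media 3 (0.23) and CSF 3 with media 2 (0.16) exceeded 0.1 too. The other NALM-6 pairs of different numbers were at -0.37 to -0.17. In REH the same-numbered libraries did not all exceed 0.1. A read was worth 0.0269 to 0.0427 CPM, and 0 reads allow up to 3 reads. Such limits cover counting error only.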

Additional observations from a re-analysis of the deposited data

How the results depend on the processing

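Pseudocounts and filters kept every count of called genes within 1.5 times. The counts below are given without the share of all genes tested that passed in the same setting. Changes in the counts are therefore not read as particular to the repair genes described. In CSF against media in NALM-6 (8 genes), the count was 5 with median-of-ratios scaling, quantile normalization, edgeR, length correction, and length and GC correction, 0 when only the groups compared were fitted, and 3 to 12 with 1 library left out, 3 being the count without any of NALM-6 CSF 1, 2 or 3. In REH (9) it was 5 with quantile normalization and with length correction, and 3 to 17 with 1 library left out: 3 without REH media 1 or 2, 5 without REH media 3, REH CSF 1 or 2, and 17 without NALM-6 media 1. With the replicate block, whose pairing was taken to hold in NALM-6 only, it was 1 in NALM-6, 3 in REH and 5 in CSF between the lines, and with length correction added 2 in NALM-6 and 3 in REH. For the difference of responses (0), DESeq2 and the length and GC correction gave 1, and leaving out 1 library 0 to 1. Between the lines in media (7), the count was 12 with median-of-ratios scaling, 11 with edgeR, 11 with length correction, 15 with DESeq2, and 5 to 10 with 1 library left out. Between the lines in CSF (8) it was 13 with length correction, 16 with length and GC correction, and 5 to 18 with 1 library left out (18 without NALM-6 media 1, 5 without NALM-6 CSF 2). Without both NALM-6 media 1 and REH CSF 3, the counts were 24, 29, 4, 19 and 27 in NALM-6, in REH, for the difference, and between the lines in media and in CSF. In the same order they were 22, 25, 4, 20 and 31 with edgeR, 21, 26, 5, 20 and 30 under median-of-ratios scaling, 19, 26, 6, 26 and 32 with length correction, and 20, 22, 0, 15 and 19 with the replicate block.

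Directions of values that passed in at least 1 of the 2 analyses compared turned as follows. In NALM-6 in CSF, RAD51D was at -0.053 with length correction, with and without the block, and -0.042 with length and GC correction, where RAD51B was at -0.045. In REH, BARD1 was at 0.27 without the 2 libraries. The difference of responses became positive for MRE11 with length and GC correction (0.49) or with length correction without the 2 libraries (0.32), and for FANCD2 without them (0.28 with median-of-ratios scaling, 0.34 with length correction). Between the lines in media and without the 2 libraries, PALB2 turned to -0.31, to -0.40 with edgeR or median-of-ratios scaling, to -0.42 with length correction and to -0.28 with the block, and NBN to -0.21 in edgeR and under median-of-ratios scaling and -0.24 after length correction. With length correction BRCA1 (-0.15), FANCM (-0.20), FANCI (-0.12), ATM (-0.22), ATR (-0.20) and TOPBP1 (-0.17) turned too. Between the lines in CSF, XRCC2 turned to 0.34, with 0.24 in edgeR, 0.37 with the block, 0.27 under the median-of-ratios and 0.26 with length correction. A further 422 of the 5806 values of single genes under the alternatives changed sign without passing in either, among them BRCA2 in REH (0.26 without the 2 libraries). The cause was not tested. RAD54B, the lowest of the genes beside RAD50, has no value with a minimum of 5 CPM, and the difference of responses cannot be fitted to the groups of 1 line. Depth limits RAD54B, which had 1 read in NALM-6 media 1. Of the values of single genes under the alternatives, 441 newly passed, 176 no longer passed, and 489 that passed in neither moved by more than the spread between libraries.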
